A study of Mus musculus with 8 samples.

Results

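The mitochondrial ribosomal protein genes were followed in ventricles of E14.5 mouse hearts in which Mib1 had been deleted in cardiomyocytes. Members were taken by name: every gene of the deposited table whose mouse symbol starts with Mrpl or Mrps and a digit, leaving out 2 pseudogenes with -ps in the symbol (Mrpl23-ps1 and Mrpl48-ps). This gave 77 of the 13869 genes in the table, 48 Mrpl genes of the large subunit and 29 Mrps genes of the small subunit. Mrpl33 was not analysed here. RNA sequencing of polyadenylated RNA had been done on 8 libraries from whole ventricles. The mutant group, with the genotype Mib1flox; CTnT-cre, held 4 libraries, and its Cre recombinase is driven by the cardiac troponin T promoter, so that deletion is aimed at cardiomyocytes while the other cells of the ventricle keep the gene. The wild-type (WT) group held 4 libraries, and no allele or agent besides WT is given for it. For each genotype 16 hearts had been pooled into the 4 replicates, so each library is a pool and not an embryo. The labels do not state whether pools shared litters, and p-values measure only the spread between these pools.

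Mitochondria carry their own ribosome, which translates the few messages of mitochondrial DNA, all of them for subunits of the respiratory chain and ATP synthase. Its RNA comes from the mitochondrial genome, but every one of its proteins is encoded in the nucleus, made on cytosolic ribosomes and imported. Some of these proteins have counterparts in bacterial ribosomes and others exist only in mitochondria. The heart depends heavily on oxidative metabolism, and inherited defects of several mitochondrial ribosomal proteins cause cardiomyopathy in infancy.

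Because these genes are scattered over the chromosomes but are needed together, their start regions are shown first, for the 4 members whose mutant and WT libraries did not overlap (Mrpl30, Mrpl12, Mrpl43 and Mrpl57) and for Mrpl3, the member of smallest p among those higher in the mutants. Each sequence runs 5′ to 3′ in the sense of the gene, from 250 bases before to 50 bases after the RefSeq start (GRCm38.p6). Capitals mark matches, on either strand, to letters known from factors that act on mitochondrial genes: GCGCA, any base and GCGC for NRF1, CCGGAAG for the ETS family that includes GABPA, and AAGATGG for YY1. None of the motifs contains another, and a promoter can hold several. They lie at chr1:37890227-37890526 (plus strand) for Mrpl30, chr11:120484387-120484686 (plus strand) for Mrpl12, chr19:45006393-45006692 (minus strand) for Mrpl43, chr14:57825989-57826288 (plus strand) for Mrpl57 and chr9:105053018-105053317 (plus strand) for Mrpl3.
Mrpl30: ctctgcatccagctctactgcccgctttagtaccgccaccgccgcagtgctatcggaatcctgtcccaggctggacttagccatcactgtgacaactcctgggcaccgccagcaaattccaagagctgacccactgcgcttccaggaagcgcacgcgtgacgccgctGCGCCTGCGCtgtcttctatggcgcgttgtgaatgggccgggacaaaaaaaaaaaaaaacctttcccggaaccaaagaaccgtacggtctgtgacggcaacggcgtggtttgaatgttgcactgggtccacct
Mrpl12: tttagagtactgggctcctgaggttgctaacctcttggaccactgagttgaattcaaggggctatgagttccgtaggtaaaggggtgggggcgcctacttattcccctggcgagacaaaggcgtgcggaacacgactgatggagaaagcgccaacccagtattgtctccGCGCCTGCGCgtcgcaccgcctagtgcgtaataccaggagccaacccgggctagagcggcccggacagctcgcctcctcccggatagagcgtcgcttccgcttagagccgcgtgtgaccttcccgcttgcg
Mrpl43: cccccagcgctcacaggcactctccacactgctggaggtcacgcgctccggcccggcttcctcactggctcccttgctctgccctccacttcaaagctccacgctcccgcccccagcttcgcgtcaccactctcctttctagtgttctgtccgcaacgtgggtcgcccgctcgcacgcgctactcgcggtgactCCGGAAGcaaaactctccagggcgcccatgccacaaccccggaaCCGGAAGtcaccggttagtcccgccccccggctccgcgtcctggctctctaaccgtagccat
Mrpl57: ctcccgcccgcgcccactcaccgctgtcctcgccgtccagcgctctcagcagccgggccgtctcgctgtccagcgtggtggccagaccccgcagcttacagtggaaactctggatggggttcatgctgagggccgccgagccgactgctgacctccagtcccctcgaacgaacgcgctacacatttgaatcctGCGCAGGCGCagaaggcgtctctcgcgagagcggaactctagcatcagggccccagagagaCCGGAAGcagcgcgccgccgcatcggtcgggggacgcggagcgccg
Mrpl3: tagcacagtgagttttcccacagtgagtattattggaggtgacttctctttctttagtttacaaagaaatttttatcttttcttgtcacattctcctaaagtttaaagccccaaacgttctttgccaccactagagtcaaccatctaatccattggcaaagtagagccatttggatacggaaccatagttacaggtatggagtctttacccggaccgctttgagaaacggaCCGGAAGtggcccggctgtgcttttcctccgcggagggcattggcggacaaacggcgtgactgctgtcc
The Mrpl30 and Mrpl12 promoters each held 1 NRF1 match, at 83 and 81 bases before the start, Mrpl43 held 2 ETS matches, Mrpl57 held 1 NRF1 and 1 ETS match, and Mrpl3 held 1 ETS match.

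Promoters were found in the RefSeq table for 68 members (9 were not matched), 74 promoters in all. NRF1 letters stood in 17.6% of the members' promoters and in 4.6% of all 32851 promoters of the same length. ETS letters stood in 33.8% against 8.86%, YY1 letters in 17.6% against 6.34%, and at least 1 of the motifs in 56.8% against 18.0%. The members' promoters were also richer in G and C, with a median of 58.8% against 52.7%. Members with and without matches had like differences between genotypes. The median log2 difference between mutant and WT was −0.07 for the 13 members with NRF1 letters and −0.08 for the 55 without, −0.07 for the 25 with and −0.09 for the 43 without ETS letters, and −0.10 for the 13 with and −0.07 for the 55 without YY1 letters. These matches are descriptions of letters in a window and not sites of binding.

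Mib1 (ENSMUSG00000024294), the gene of the ubiquitin ligase that makes Notch ligands competent to signal, checked the labels. It stood at 106, 103, 95.3 and 96.3 CPM (counts per 1000000 of the normalized library) in the mutant libraries and at 150.3, 166, 160.5 and 167 CPM in the WT libraries, without overlap. The difference was −0.68 ± 0.06 on the log2 scale (± is the standard error of limma throughout for log2 differences), with an adjusted p of 8.62e-06 in limma over all genes and p = 0.0286 in a two-sided exact permutation test (n = 4 per group), the smallest p that the 35 splits allow. The depth was 6307634 to 11506082 recovered counts a library, so that 3 counts correspond to 0.265 to 0.472 CPM (counting error only). The markers of cardiomyocytes were all present (12 of 12, summed 37931 to 41081 CPM in mutants and 39564 to 43669.5 in WT). In a bulk library, fewer cells of a type and less RNA per cell cannot be told apart.

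No mitochondrial ribosomal protein gene was called changed in the mutant ventricles, and as a group they stood slightly below WT. All 77 members passed the filter on low values (a mean log2 CPM of at least 0), and limma called 0 of them at an adjusted p under 0.05, higher or lower, against 2.24% of the 13740 genes tested (0.99% higher and 1.25% lower). At an unadjusted p under 0.05, 8 members were lower and 0 higher, against 7.85% and 6.94% of all genes tested. Voom weights called 0 and array weights 1 (Mrpl30), and the share of all genes called with these weights is not given. The log2 difference was below 0 for 62 of the 77 members (80.5%), against 49.7% of all genes tested. The median over the members was −0.08 and over all genes 0.0. The sum of the 77 genes was 2737, 2755, 2929 and 2812 CPM in the mutants (2808 ± 86.8, SD, n = 4) and 2947, 3032, 2939 and 2903 CPM in WT (2955 ± 54.6), a difference of −4.97%. Mutants 1, 2 and 4 lay below all WT libraries and mutant 3 lay among them, so the groups overlapped.

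The count of members below 0 stayed between 58 and 65 when any 1 library was left out, but the size of the shift rested on single libraries. Without mutant 1 the median over the members was −0.05, and without WT 2 it was −0.05. The members are also short: the median transcript had 1056 bases, against 2203 over all genes tested, and short transcripts as a class lay slightly below 0. When all genes were divided into 4 equal classes of length, the shortest class (up to 1261 bases) held 45 members, and there the median log2 difference was −0.09 for the members and −0.04 for the 3284 other genes. In the next classes the 16, 12 and 4 members had medians of −0.07, −0.06 and 0.0, and the other genes −0.01, 0.01 and 0.03. Relative to a trend over length, GC content and level, the members' median was −0.05, and 54 of 77 lay below the trend, against 48.4% of all genes. What part length has in the shift was not tested further.

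**Figure D1:**
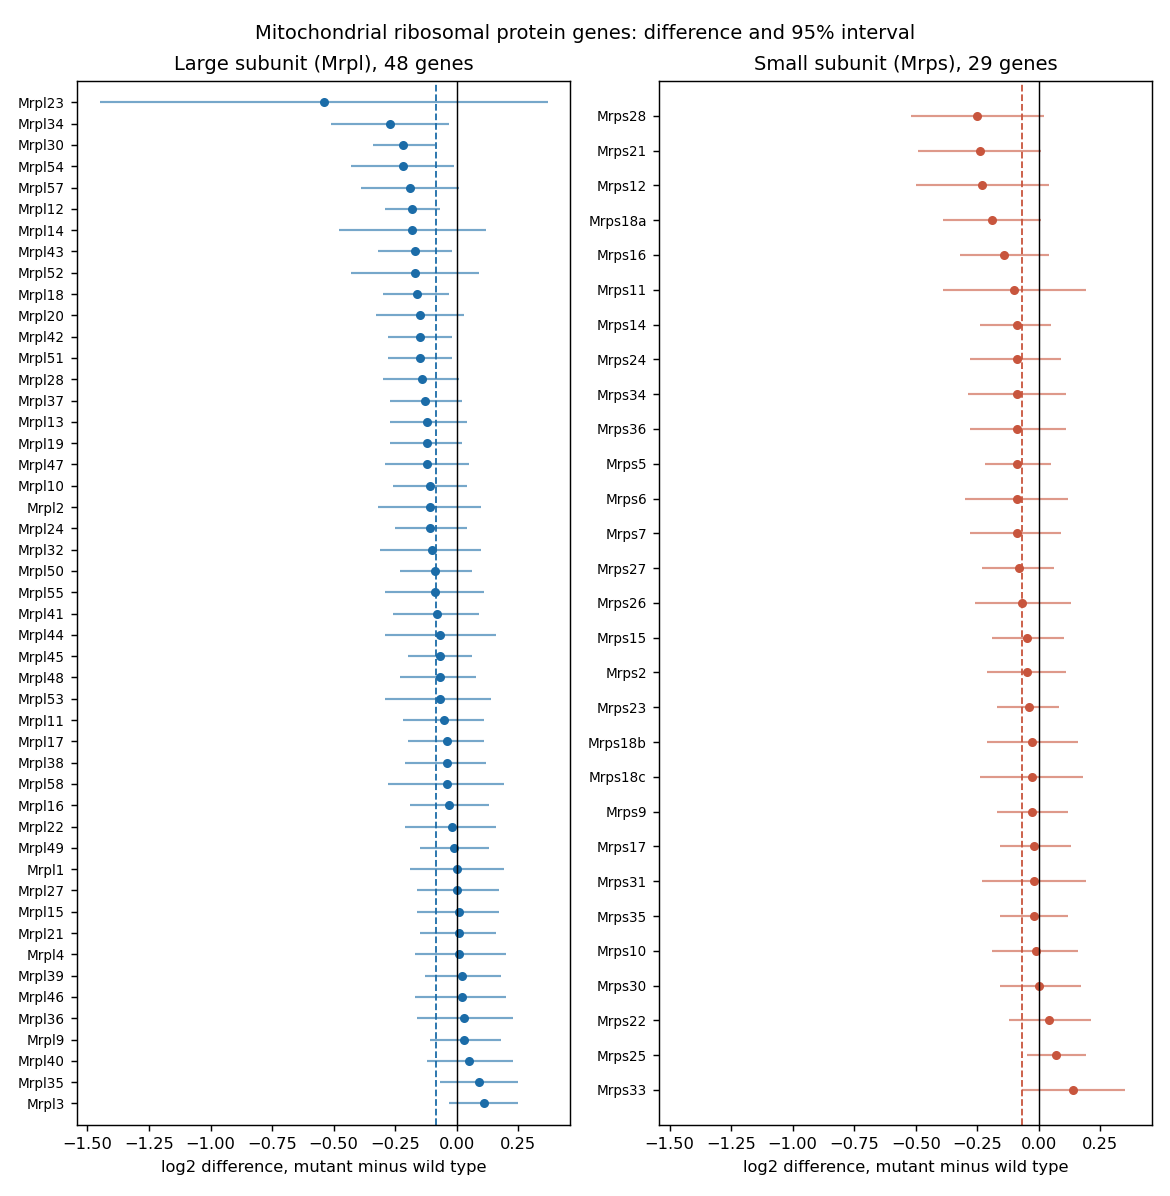
Log2 difference between mutant and WT (dots) with its 95% interval (lines) for the 48 Mrpl genes (left) and the 29 Mrps genes (right), sorted by size. The dashed lines are the medians, −0.09 and −0.07, the solid line is no difference, and the interval of Mrpl23 is by far the widest.

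The data were precise enough to bound most members. The 95% interval of the difference lay within 1.5-fold in either direction for 76 of the 77 members and within 1.25-fold for 61. It lay wholly below 0 for 8 members, wholly above 0 for none, and held 0 for the other 69. The standard error had a median of 0.08 and reached at most 0.14 apart from Mrpl23, at 0.42.

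Those 8 members, all with an unadjusted p under 0.05, belonged to the large subunit: Mrpl30, Mrpl12, Mrpl18, Mrpl51, Mrpl42, Mrpl43, Mrpl34 and Mrpl54. They are 10.4% of all members, against 7.85% of all genes tested that were lower at this unadjusted threshold, so their share is near the background. Of the large subunit they make up 16.7%, and 0 of 29 small subunit genes met the same threshold. This contrast follows the symbols. With the subunits set by place, as described below, 8 of 51 large subunit genes met it and 1 of 30 small subunit genes, Chchd1. In the other direction 0 of 77 did, against 6.94% of all genes. The number of lower members ran from 4 without mutant 2 to 17 without mutant 3, and was 5 without WT 1 and 5 without WT 2. The share of all genes in these settings is not given, so these counts have no background beside them. Groups without overlap, all lower in mutants, were found for 4 members (5.19%, background 4.65%), and none was higher without overlap (background 4.27%). Mrpl34 and Mrpl54, and any member described below that did not stand out by p, level or a link to disease, were chosen after their values were seen.

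Mrpl30 (ENSMUSG00000026087) encodes a large subunit protein with a bacterial counterpart. It stood at 45.5, 45.3, 48.8 and 47.1 CPM in the mutants and at 53.9, 53.1, 57.0 and 52.9 CPM in WT. Every mutant library was below every WT library, with a log2 difference of −0.22 ± 0.06 and an adjusted p of 0.0785 in limma. With array weights, which let noisier libraries count less, Mrpl30 was the only member called, at an adjusted p of 0.0436 (range over all alternatives 0.0436 to 0.227).

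Mrpl12 (ENSMUSG00000039640) encodes the mobile protein of the ribosomal stalk, which helps to recruit translation factors. Its level was 107, 112, 117 and 117 CPM in the mutants and 126, 130.1, 126 and 131 CPM in WT, again without overlap. The log2 difference was −0.18 ± 0.05 with an adjusted p of 0.0835 in limma. At an adjusted p under 0.1, Mrpl30 and Mrpl12 were the 2 members called lower (2.6%), against 2.18% of all genes.

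The other members of smallest p among the lower ones missed the threshold further. Mrpl43 (ENSMUSG00000025208), a protein found only in mitochondrial ribosomes, stood at 26.9, 27.1, 28.6 and 27.9 CPM in the mutants and at 31.0, 31.0, 33.2 and 29.5 CPM in WT, with no overlap, a log2 difference of −0.17 ± 0.07 and an adjusted p of 0.262 in limma. Its exons overlap those of Twnk, the gene of the mitochondrial DNA helicase, on the opposite strand, and since no source names strand-aware counting, reads of these genes cannot be told apart there. Mrpl18 (ENSMUSG00000057388), which overlaps Tcp1 in the same way, stood at 65.1, 62.8, 70.3 and 63.0 CPM in the mutants and at 79.3, 70.4, 69.1 and 73.4 CPM in WT. Mutant 3 lay above WT 3, so the groups overlapped, and the adjusted p was 0.246. Mrpl51 (ENSMUSG00000030335) and Mrpl42 (ENSMUSG00000062981), both specific to mitochondria, differed by −0.15 ± 0.06 each, at adjusted p values of 0.254 and 0.255 in limma. Mrpl51 stood at 64.6, 63.7, 68.4 and 63.3 CPM in the mutants against 69.8, 78.7, 72.4 and 68.3 CPM, and Mrpl42 at 102, 90.3, 97.7 and 99.4 CPM against 110.0, 110.3, 98.9 and 113 CPM. In both genes 1 WT library lay below the highest mutant library.

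**Figure D2:**
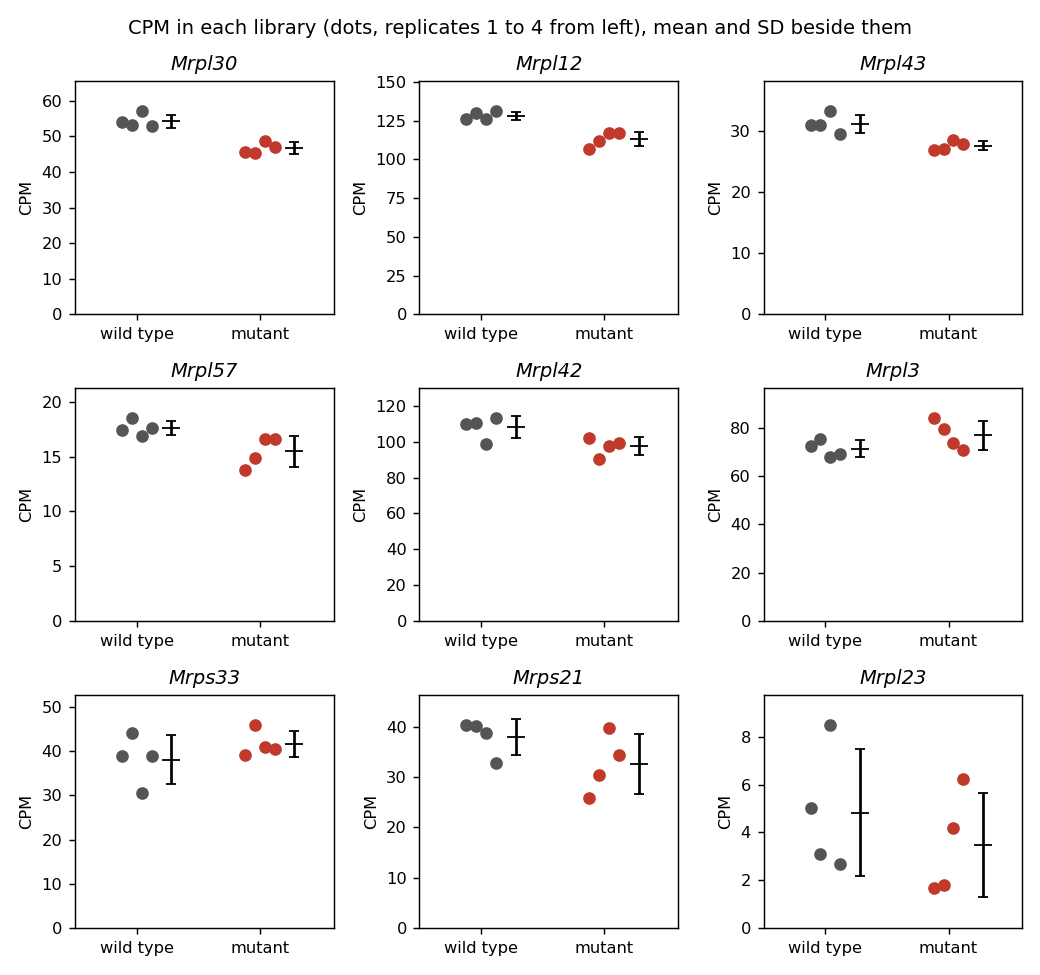
CPM of 9 members in each library (dots, replicates 1 to 4 from the left in each group), with the mean and SD of the 4 libraries as bars beside them and every axis starting at 0. Mrpl30, Mrpl12, Mrpl43 and Mrpl57 show no overlap between the groups, and the other 5 do.

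The members of smallest p among the higher ones were closer to no difference. Mrpl3 (ENSMUSG00000032563), whose product lies near the catalytic centre of the large subunit, stood at 83.9, 79.4, 73.6 and 70.6 CPM in the mutants and at 72.6, 75.5, 67.9 and 69.0 CPM in WT. Mutants 1 and 2 were above all WT libraries and mutants 3 and 4 were among them, and the log2 difference was 0.11 ± 0.07 with an adjusted p of 0.479 in limma. Mrps33, a protein of the small subunit that bacteria lack, stood at 39.2, 45.9, 41.0 and 40.4 CPM in the mutants and at 38.8, 44.0, 30.6 and 38.8 CPM in WT, where WT 3 was low (0.14 ± 0.10, adjusted p = 0.549). Mrpl35, Mrps25, Mrpl40 and Mrps22 differed by 0.09, 0.07, 0.05 and 0.04 on the log2 scale, each with groups that overlapped and an adjusted p of 0.623 or more in limma.

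Between the subunits the difference was small. The median log2 difference was −0.09 over the 48 Mrpl genes, of which 37 lay below 0, and −0.07 over the 29 Mrps genes, of which 25 did. The Mrpl genes summed to 1862 ± 55.1 CPM in the mutants and 1972 ± 37.1 in WT (SD, n = 4), −5.57%, and the Mrps genes to 946 ± 31.8 and 983 ± 17.7, −3.77%. Both sums overlapped between the groups. The ratio of the Mrpl sum to the Mrps sum was 1.982, 1.966, 1.959 and 1.971 in the mutants and 2.014, 2.008, 2.0 and 2.004 in WT. It was lower in every mutant library than in every WT library, by −1.84%.

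The ratio was also taken with other genes counted. Mrps18a and Mrps30 keep small-subunit symbols but their proteins sit in the large subunit, and the Mrps36 product is now known as a part of the 2-oxoglutarate dehydrogenase complex. With Mrps18a and Mrps30 moved to the large subunit and Mrps36 left out, the ratio ran from 2.242 to 2.268 in the mutants and from 2.285 to 2.321 in WT, still without overlap. With only the 5 ribosomal proteins of other symbols added (Gadd45gip1 to the large subunit, Dap3, Ptcd3, Chchd1 and Aurkaip1 to the small), it ran from 1.554 to 1.581 and from 1.594 to 1.625, again without overlap. With both changes together, which set the subunits by place, it ran from 1.732 to 1.786 in the mutants and from 1.78 to 1.833 in WT, where mutant 3 lay above WT 3. The difference between the mean log2 CPM of Mrpl and Mrps genes, which weighs every gene equally, also overlapped, with 0.176 ± 0.015 in the mutants and 0.196 ± 0.022 in WT (SD, n = 4). The ratio thus separated the groups under 3 of the 4 memberships, and the equally weighted difference did not.

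Mrps18a itself stood at 20.5, 23.8, 26.2 and 24.9 CPM in the mutants and at 25.1, 30.5, 26.1 and 27.1 CPM in WT (−0.19 ± 0.09, adjusted p = 0.356 in limma), with mutant 3 inside the WT range. Mrps30 was at 37.3 ± 2.87 CPM in the mutants and 37.3 ± 2.46 CPM in WT (SD, n = 4), a log2 difference of 0.0 ± 0.08. Mrps36 stood at 30.6, 29.6, 38.5 and 29.5 CPM against 35.3, 35.7, 31.2 and 33.3 CPM. Mutant 3 was the highest of all 8 libraries there and the other 3 mutants the lowest.

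By origin, the 28 large subunit proteins with a bacterial counterpart had a median of −0.11, with 20 below 0, and the 19 found only in mitochondria −0.07, with 16 below 0. The summed CPM of the latter ran from 716 to 767 in the mutants and from 771 to 813 in WT, without overlap, and that of the former from 1074 to 1154 and from 1149 to 1191. In the small subunit all 15 members with a bacterial counterpart lay below 0 (median −0.09, range −0.24 to −0.01), and 7 of the 10 found only in mitochondria (median −0.03). None of these genes was called, and the difference between the classes was not tested.

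By place in the ribosome, the 5 genes of the stalk and its base (Mrpl10, Mrpl11, Mrpl12, Mrpl53 and Mrpl54) lay below 0 together, with a median of −0.11 and sums of 230.0 to 256 CPM in the mutants and 261 to 277 CPM in WT. Those sums did not overlap, and Mrpl12 alone made up 113 of the mean of 244 CPM in the mutants and 128 of 269.7 in WT. Mrpl54 stood at 27.1, 29.8, 37.0 and 31.6 CPM against 36.0, 39.6, 38.4 and 31.7 CPM (−0.22 ± 0.10, adjusted p = 0.32 in limma). The 5 genes that line the exit tunnel of the nascent chain (Mrpl22, Mrpl23, Mrpl24, Mrpl44 and Mrpl45) also lay below 0, with a median of −0.07 and sums that overlapped (144 to 153 against 149 to 167 CPM).

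The 4 members linked to cardiomyopathy in patients showed no common direction. Mrpl3, described above, was at 0.11 ± 0.07 and Mrps22, of the small subunit, at 0.04 ± 0.08 on the log2 scale. Mrpl44, whose product resembles a ribonuclease, stood at 19.8, 24.2, 27.1 and 23.5 CPM in the mutants and at 24.5, 26.2, 27.1 and 21.2 CPM in WT (−0.07 ± 0.11). Mrps14, of the head of the small subunit, stood at 30.2, 31.6, 28.9 and 31.9 CPM against 32.7, 31.6, 33.1 and 33.1 CPM (−0.09 ± 0.07). All 4 had overlapping groups, adjusted p values of 0.479 to 0.854 in limma, and sums of 155 to 165 CPM in the mutants and 153 to 161 in WT.

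The members differ far more from one another than between genotypes. Set per length (WT mean CPM per kilobase of the median coding transcript), Mrpl42 at 164 and Mrpl12 at 97.5 were the highest of the large subunit and Mrpl57 at 6.12 and Mrpl23 at 6.99 the lowest. In the small subunit Mrps21 at 94.0 and Mrps23 at 80.4 were the highest, and Mrps26 at 6.34 and Mrps25 at 8.67 the lowest. These per-kilobase values rest on annotated lengths, from 405 bases for Mrps21 to 6073 for Mrps25, and not on the isoforms used in these hearts. As counts, the mean over the 8 libraries had a median of 33.0 CPM over the members and was above 10 CPM for 76 of them.

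**Figure D3:**
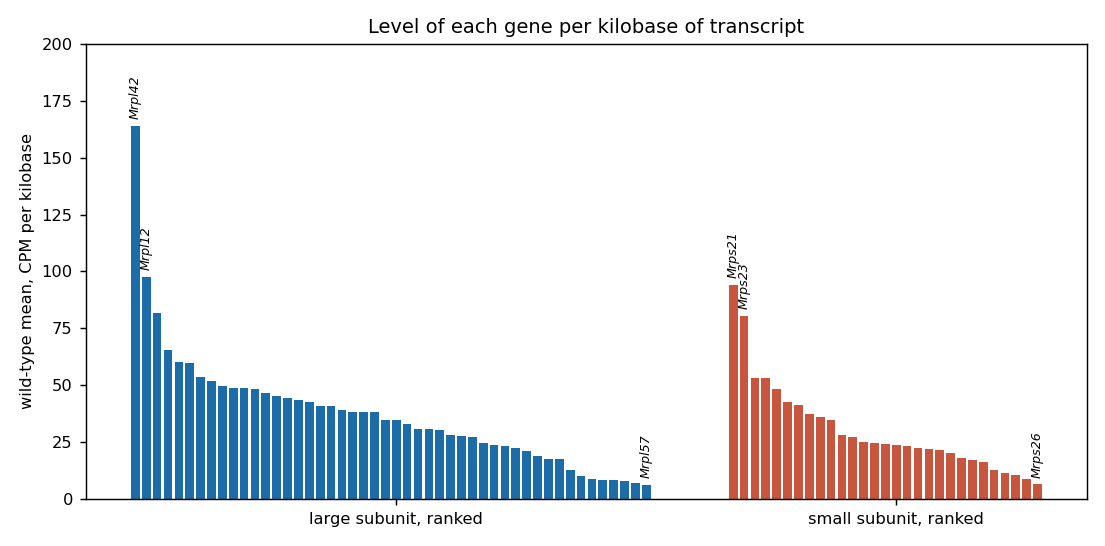
WT mean level of each member in CPM per kilobase of transcript, ranked within the large (blue) and small (red) subunit. Mrpl42 at 164 and Mrps21 at 94.0 lead their subunits, and Mrpl57 at 6.12 and Mrps26 at 6.34 close them.

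Genes at the extremes of this ranking differed in sign between genotypes, and none was called. Mrps21, of the small subunit, stood at 25.8, 30.4, 39.8 and 34.5 CPM in the mutants and at 40.4, 40.3, 38.9 and 32.8 CPM in WT (−0.24 ± 0.12, adjusted p = 0.37 in limma). Mutants 1 and 2 were the lowest and mutant 3 lay among the WT libraries, the same order as in the sum of all members. Mrps23 and Mrps26 differed by −0.04 ± 0.06 and −0.07 ± 0.09, and Mrps25 stood at 56.3, 53.7, 56.7 and 54.3 CPM against 52.3, 50.2, 54.6 and 53.6 CPM (0.07 ± 0.06).

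Mrpl57 (ENSMUSG00000021967), a small protein specific to mitochondria, stood at 13.8, 14.9, 16.6 and 16.6 CPM in the mutants and at 17.4, 18.5, 16.9 and 17.6 CPM in WT. The groups did not overlap, but mutants 3 and 4 lay just below WT 3 (−0.19 ± 0.09, adjusted p = 0.361 in limma). Mrpl23, a protein at the exit of the tunnel, had the lowest counts of all members (14 to 54 per library) and spread widely, with 1.68, 1.78, 4.19 and 6.23 CPM in the mutants and 5.04, 3.11, 8.5 and 2.69 CPM in WT. Its log2 difference of −0.54 ± 0.42 was the largest in size and the least certain. Its pseudogene Mrpl23-ps1 had 26.4 ± 2.08 CPM in the mutants and 29.8 ± 1.86 in WT (SD, n = 4), more than the gene itself. The sequences of gene and pseudogene were not compared, and the split of reads between them is uncertain.

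Annotation overlaps touch many members. Exons of 32 members overlap another annotated gene, 28 on the opposite strand and 7 on the same strand. The other 45 members had a median of −0.08, and 38 of them lay below 0, so the shift was as large without the overlapping ones. Of the members named above, Mrpl12, Mrpl3, Mrpl10, Mrpl24, Mrpl44, Mrpl53, Mrps25, Mrps26 and Mrps30 overlap a gene on the opposite strand, besides Mrpl43 and Mrpl18. On the same strand Mrpl3, Mrpl51 and Mrpl53 overlap another gene. Mrpl46 (0.02 on the log2 scale) and Mrps11 (−0.10), one of each subunit, overlap each other on opposite strands. A coding gene starts within 1000 bases in the opposite direction for 18 members (23.4%, against 9.96% of tested coding genes). The 17 of these neighbours that were tested had a median of −0.02, with 10 below 0, 0 called by limma and 0 at an unadjusted p under 0.05. The neighbour furthest from 0 was Fau, which encodes a fusion of a ubiquitin-like protein and a cytosolic ribosomal protein, at −0.38, and it faces Mrpl49 at −0.01. Mrpl30 at −0.22 faces Mitd1 at 0.18, and Mrps12 at −0.23 faces Sars2, which encodes a mitochondrial seryl-tRNA synthetase, at −0.02.

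The rest of the mitochondrial translation machinery showed no call either. Over 8 lists of mitochondrial gene expression and the citrate cycle, 116 genes in all, limma called 0, as did voom and array weights. Lower at an unadjusted p under 0.05 were 11 and higher 1, against 7.85% and 6.94% of all genes tested. The 5 ribosomal proteins with other symbols had a median of −0.01. Chchd1, one of them in the small subunit, stood at 32.4, 29.9, 31.9 and 30.4 CPM in the mutants and at 37.0, 34.2, 35.4 and 33.1 CPM in WT, without overlap (−0.17 ± 0.07, adjusted p = 0.275 in limma). Of the 27 assembly and rRNA-modification factors 14 lay below 0 (median 0.0). Nsun4, an RNA methyltransferase that acts in ribosome assembly, was higher in every mutant library, with 35.6, 36.4, 33.8 and 30.5 CPM against 27.2, 29.4, 28.8 and 29.2 CPM (0.25 ± 0.07, adjusted p = 0.119 in limma).

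Of the 16 translation factors 14 lay below 0, with a median of −0.03. Tufm, the elongation factor that brings charged tRNA to the ribosome, stood at 115, 119, 122 and 124 CPM in the mutants and at 135, 126, 135 and 126 CPM in WT (−0.12 ± 0.05, adjusted p = 0.277 in limma), with no overlap. The 17 aminoacyl-tRNA synthetases had a median of −0.01, with Ears2, for glutamate, at −0.23 ± 0.09 (adjusted p = 0.266). The 10 genes of mitochondrial DNA replication and transcription had −0.07, with Ssbp1, which binds single-stranded mitochondrial DNA, at −0.13 ± 0.07. The 11 nuclear regulators, among them Nrf1, Gabpa and Yy1, had −0.01, with the nuclear receptor gene Esrra at −0.14 ± 0.07, and the 17 genes of the citrate cycle −0.05, with Sdhc at −0.12 ± 0.06. The last 3 genes had adjusted p values of 0.434, 0.404 and 0.333 in limma. The summed CPM of the 10 genes of DNA replication and transcription ran from 297 to 298 in the mutants and from 302 to 319 in WT. That of the 5 ribosomal proteins with other symbols ran from 280 to 283 and from 284 to 300. Neither sum overlapped between the groups, and the sums of the other lists did.

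The messages that the mitochondrial ribosome translates were also measured, but not the proteins made from them. The 13 protein-coding genes of mitochondrial DNA had a median log2 difference of 0.0, with 7 below 0 and none called, and mt-Nd3 was the one of smallest p (−0.12 ± 0.05, adjusted p = 0.34 in limma). They summed to 88166, 75446, 72108 and 73740.5 CPM in the mutants and 73447, 73689, 74156 and 83633 CPM in WT. Mutant 1 and WT 4 stood above the other 6 libraries. With both left out, 61 members lay below 0, their median was −0.07, and 0 were called by limma (7 lower and 0 higher at an unadjusted p under 0.05). The share of all genes in this setting is not given.

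**Figure D4:**
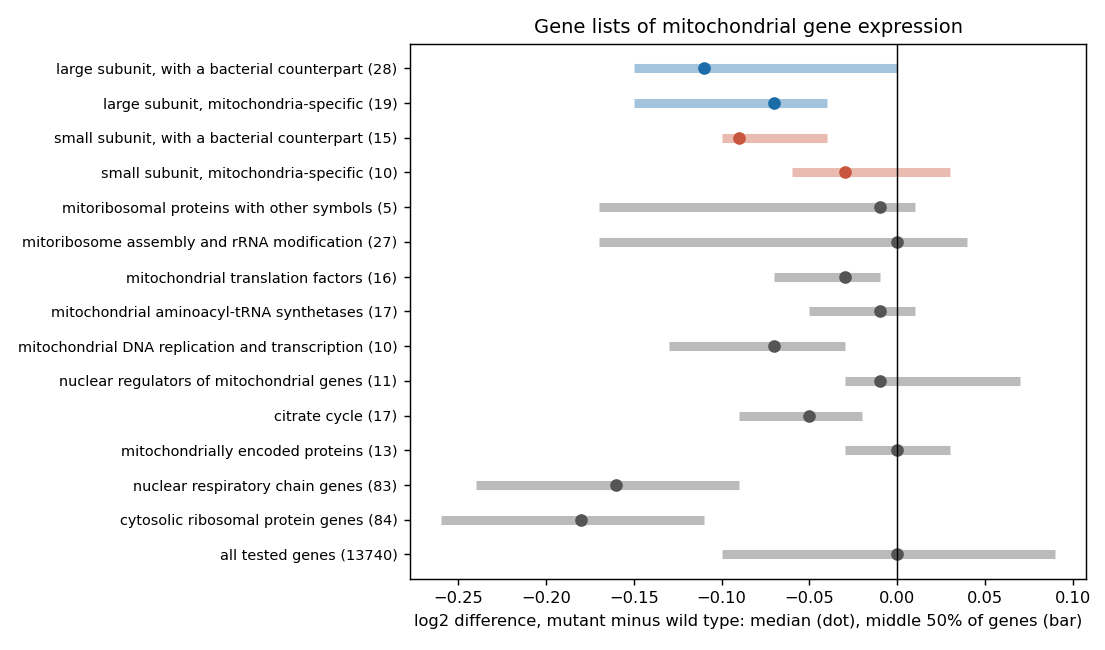
Median log2 difference between mutant and WT (dot) and the middle 50% of genes (bar) for classes of members, lists of genes that act with them and all 13740 tested genes, with the number of genes in brackets. Respiratory chain genes at −0.16 and cytosolic ribosomal protein genes at −0.18 lie lowest, the member classes between −0.11 and −0.03, and mitochondrially encoded genes at 0.0.

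Both larger nuclear groups, the respiratory chain and the cytosolic ribosome, had medians further below 0 than the members. Of 83 nuclear genes of the respiratory chain 81 lay below 0, with a median of −0.16, and limma called 5 lower (background 1.25%), Cox6a2 and Cox8b among them. The number called ran from 1 (without mutant 2, or without WT 1, 2 or 3) to 14 (without mutant 3), with 3 without mutant 1 and 2 without WT 4. It was 1 with the replicate number as a block and 1 in limma without a trend. These encode heart and muscle forms of cytochrome c oxidase subunits, and they fell by 0.51 and 0.61 on the log2 scale (SE 0.08 and 0.14, adjusted p = 0.00287 and 0.0302). Cox8b lost its call without mutant 2, without any 1 WT library, with the block and without the trend. Of 84 cytosolic ribosomal protein genes 74 lay below 0, with a median of −0.18, but limma called 0. Lower at an unadjusted p under 0.05 were 50 and higher 0, against 7.85% and 6.94% of all genes tested. Voom weights called 0, array weights 5, and limma 23 without mutant 3. For both groups, the share of all genes called when the setting changed is not given. The gene of smallest p, Rpl22, differed by −0.22 ± 0.06 (adjusted p = 0.0926 in limma, 0.0315 to 0.272 over the alternatives).

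By library, the members moved less than cytosolic ribosomal protein genes but in a like order. The median deviation of the members from the WT mean was −0.10, −0.12, −0.01 and −0.07 in mutants 1 to 4 and −0.01, 0.04, 0.01 and −0.03 in WT 1 to 4. For cytosolic ribosomal protein genes it was −0.36, −0.28, 0.0 and −0.11 in the mutants and −0.02, 0.09, 0.01 and −0.09 in WT. Mutants 1 and 2 were lowest and mutant 3 at the WT level in both. Respiratory chain genes were at −0.28, −0.19, −0.08 and −0.08 in the mutants and 0.03, 0.03, −0.01 and −0.05 in WT, without overlap.

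**Figure D5:**
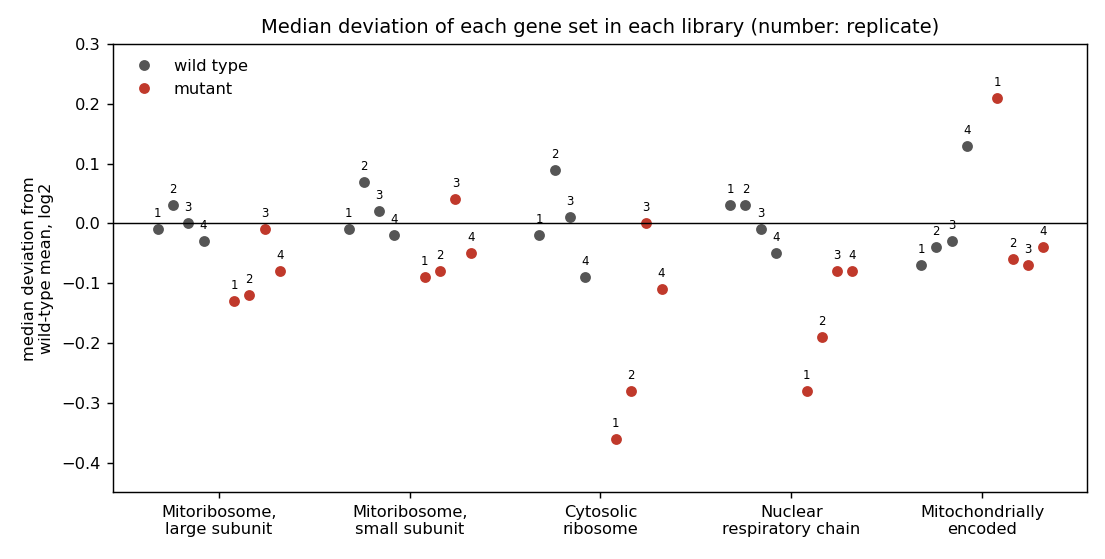
Median deviation of 5 gene sets from the WT mean in each library, on the log2 scale, with the replicate number above each point (grey, WT; red, mutant). Mutants 1 and 2 lie lowest for both subunits of the mitochondrial ribosome and for the cytosolic ribosome, mutant 3 lies at the WT level there, and only the respiratory chain set separates the groups.

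Some sets of cell-type markers differed in the same libraries. Macrophage markers (12 of 12 in the table) summed to 80.7 to 102 CPM in the mutants and 118 to 144 in WT. Endothelial and endocardial markers (12 of 12) summed to 1420.5 to 1475 and 1665 to 1722 CPM. Erythroid markers (9 of 12) summed to 1966 to 3228 and 3002 to 4090.3 CPM, and these sums overlapped. Atrial markers (8 of 8) summed to 1371 to 1588 CPM in the mutants and 2189 to 2331 in WT. Of these Nppa, which is also expressed in ventricular trabeculae, made up 314 to 398 and 1041 to 1123 CPM, and the other 7 overlapped, at 1023 to 1189.6 and 1148 to 1208 CPM. The sum of smooth muscle and pericyte markers (8 of 8) was higher, at 1489.9 to 1651 against 1176 to 1352 CPM. Acta2 alone had a mean of 1088 CPM in the mutants and 846 in WT. Of the 8 genes 5 lay above 0 and 3 below, namely Kcnj8 (−0.33 ± 0.10), Myh11 (−0.46 ± 0.52) and Pdgfrb (−0.06 ± 0.06). Cardiomyocyte sums overlapped, with a median of −0.06 over the 12 genes, close to that of the members. Myh7 alone had a mean of 16057 CPM in the mutants and 16560.1 in WT (−0.04 ± 0.08). Of the 12 genes 9 lay below 0 and 3 above, and none was called. Lower without overlap were 2 (background 4.65%), Tnnt2 (−0.21 ± 0.05, adjusted p = 0.0658 in limma) and Myl2 (−0.17 ± 0.05, adjusted p = 0.135). The part of cell composition in the members' shift was not tested.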

How the data were processed

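RNA sequencing of 8 pooled ventricle libraries (4 Mib1 mutant, 4 WT, E14.5) was used as deposited. The deposited values are a score: tested on the values, each is a log2 CPM (prior 0.5 counts) multiplied by a constant of its library. Dividing by the constants gave log2 CPM and brought back whole counts for 100% of values (tolerance 0.001 counts). Per the submitters' processing notes, the authors used cutadapt 1.2.1, RSEM 1.16, Bowtie2 0.12.7 (version as named), limma and edgeR with the build mm9. The rule by which genes were kept is not stated in any source used.

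Symbols came from GENCODE M21 (13428 of 13869 identifiers matched). Gene overlaps and neighbours were read from GRCm38, and promoters from RefSeq GRCm38.p6, since mm9 was not used here. Mutant and WT libraries were tested with limma 3.58.1 under R 4.3.3 (two-sided, lmFit and eBayes with a trend, no term but group), with Benjamini-Hochberg adjustment over the 13740 genes of mean log2 CPM of at least 0 and a threshold of 0.05. A count test was not the main test because the deposited unit is no count, and voom was run on the recovered counts as an alternative. The scripts were tested on simulated data. Same-numbered libraries correlated at −0.011, −0.085, 0.163 and −0.095 after removal of group means, so replicate numbers were not treated as pairing.

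The members and all lists were chosen with earlier results of these data known. Members named in full were those of smallest p (6 in each direction), the 2 highest and 2 lowest per kilobase in each subunit, the 4 linked to cardiomyopathy, and Mrps18a, Mrps30 and Mrps36. Of other lists the gene of smallest p or up to 2 called genes were named, except for the marker lists. Those are given mainly as sums, and the marker genes named were not all chosen by this rule. Alternatives changed the pseudocount, filter, scaling, variance model, replicate block, threshold, libraries, membership and a length, GC and level trend. Leaving out mutant 1 and WT 4 together, counting members below 0 under each alternative, and splitting the change of membership into its steps were chosen after seeing the data.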

Additional observations from a re-analysis of the deposited data

Results flagged for a closer look

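Of 80 groups of 4 libraries looked at, 3 held a library whose gap to the others exceeded Dixon's critical ratio at the 95% level, where chance gives about 1 in 20. Mrps36 stood at 38.5 CPM in mutant 3 and at 29.5 to 30.6 CPM in the other mutants. Sdhc stood at 217 CPM in WT 3 and at 228 to 230.3 CPM in the other WT libraries. The summed level of the mitochondrially encoded genes was 83633 CPM in WT 4 and 73447 to 74156 CPM in the other WT libraries.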

How the results depend on the processing

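No member was called higher under any of the alternatives, and the members called lower numbered 1 with array weights, 2 at an adjusted p under 0.1 and 0 under the others. Members lower at an unadjusted p under 0.05 (8 as reported) numbered 13 with voom weights and 4 to 17 with each library left out in turn. Members higher at this threshold (0 as reported) numbered 0 to 1 in the same settings. The share of all genes that met the threshold in these settings is not given. The median over all members ran from −0.09 to −0.05, over the large subunit from −0.12 to −0.05 and over the small subunit from −0.08 to −0.04, and members below 0 numbered 54 to 65. The count of 54 is that of members below the trend over length, GC content and level, and not below a difference of 0. With the replicate number as a block the medians were −0.08, −0.09 and −0.07 and 0 members were called, and the block changed no other call of a member. No library matched its own number best among the mutants and 1 did among the WT. Of 571 values for the 22 members named by rule, 558 kept direction and side of the threshold. With each library left out in turn, Mrpl44 ran from −0.14 to 0.02 (without mutant 1), Mrps22 from −0.01 (without WT 1) to 0.08, Mrpl40 from 0.0 (without mutant 2) to 0.09, and Mrps30 from −0.04 (without mutant 3 or WT 1) to 0.03. Mrps30, at 0.0 as reported, was 0.0 with quantile normalization, −0.01 with upper-quartile scaling, −0.03 with array weights and −0.01 with voom weights. The cause was not tested. Mrpl23 had only 14 to 54 counts a library, and every other member had at least 81 counts in each library.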
